A study of Mus musculus with 12 samples.

Results

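The 56 genes described here mark the phases of the cell cycle and were taken as a given list of symbols. They fall into 21 genes of S phase and DNA replication, 26 genes of G2 and mitosis (G2/M) and 9 genes of G1, namely the D cyclins, their kinases and the kinase inhibitors. Of the 56, 51 were measured under their own symbol among the 14860 genes of the table, each by the probeset with the highest mean where a symbol had several (*Plk1* has 2). The list holds 18 measured S phase genes, 24 G2/M genes and 9 G1 genes. *Pcna*, *Rfc2*, *Rrm2*, *Ccnb1* and *Cenpf* had no probeset assigned to them alone and were not analysed here.

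RNA was taken from the neocortex of mouse embryos at E14.5 and hybridised to Affymetrix Mouse Exon ST arrays, 1 embryo per array. There were 3 control arrays (wild type for *Tbr1*, with *Tbr2* not recombined), 4 *Tbr1* KO arrays (germline null), 2 *Tbr2* cKO arrays and 3 *Tbr1/2* dKO arrays. In the cKO and in the dKO (*Tbr1*-/-;*Tbr2* 2F/2F;*Nes11*Cre), the floxed *Tbr2* alleles were deleted by a Cre transgene under the Nestin promoter, which acts in neural progenitors. The design asks how the cycle genes stand in each mutant against control, and whether loss of both factors differs from loss of either.

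Cells pass through G1, copy their DNA in S phase, and then go through G2 into mitosis. D cyclins with *Cdk4* or *Cdk6* inactivate the Rb proteins in G1, which frees E2F factors to switch on the S phase genes, and a second wave of genes for the spindle and chromosomes follows in G2. In the embryonic neocortex the dividing cells are radial glial progenitors near the ventricle and intermediate progenitors, which express Tbr2 (the product of *Eomes*), and their daughter neurons leave the cycle and express Tbr1, so that transcripts of the cycle mark the progenitor zones.

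Values are log2 expression, and the arrays had medians from 8.15 to 8.25. *Tbr1* lay between 10.88 and 11.01 in controls, 9.76 and 10.06 in *Tbr1* KO and 9.52 and 9.69 in dKO. It was also below every control in *Tbr2* cKO, at 10.39 and 10.57. *Eomes* lay between 11.70 and 12.13 in controls and between 8.20 and 9.19 in *Tbr2* cKO and dKO, so both target genes matched the labels. *Pax6*, the radial glial factor, was between 10.48 and 10.60 in controls, 10.58 and 10.805 in *Tbr1* KO and 10.93 and 11.19 in dKO. In *Tbr2* cKO it was 10.93 and 10.955, above every control. A set of 14 meninges genes stood apart in 2 arrays, *Tbr2* cKO 1 and dKO 1, at 1.15 and 1.08 above the control mean on the log2 scale against -0.16 to 0.24 in the other 10. Each comparison below was also run without both.

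The cell cycle genes of S phase and of G2/M lay slightly above control in most mutant arrays. The G1 list had medians of -0.04 (*Tbr1* KO), 0.05 (*Tbr2* cKO) and 0.05 (dKO), against 0.05, 0.09 and 0.20 for S phase. It held the single member called in any comparison with control. By list means the G1 and S phase lists were alike in *Tbr2* cKO, at 0.11 each. Relative to control the 51 members had a median log2 fold change of 0.06 (*Tbr1* KO), 0.11 (*Tbr2* cKO) and 0.20 (dKO), beside -0.01, -0.01 and 0.01 for all 14860 genes. Values above 0 were found for 41 (*Tbr1* KO), 45 (*Tbr2* cKO) and 49 (dKO) members. All 3 comparisons share the same control arrays, and in whole tissue a larger share of dividing cells and more RNA per dividing cell cannot be told apart.

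Few members passed a test on their own. A gene was called when limma's moderated test gave an adjusted p under 0.05 over all 14860 genes. In simulated data a log2 change of 0.25 against control was called in at most 0.3% of the changed genes. A count of 0 therefore does not show that small changes were absent. In *Tbr1* KO 0 members were called, against 0.619% of all genes, with 3 at an unadjusted p under 0.05 against 6.51%. In *Tbr2* cKO 0 were called, against 0.653%, with 2 higher and 1 lower at an unadjusted p under 0.05 against 3.24% and 6.80%. In dKO 1 member was called, against 3.11% of all genes, and it was the lower gene *Cdk6*, a kinase of the D cyclins (1.90% of all genes were called lower). At an unadjusted p under 0.05 there were 14 members in dKO against 12.3% of genes, 13 of them higher (5.81% of all genes) and 1 lower.

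The members were also compared array by array. In dKO, 17 members had every dKO array above every control array, where 8.58% of all genes did, and 1 had every array below (8.53%). In *Tbr2* cKO, with 2 arrays only, 23 were separated upward (10.9% of all genes) and 1 downward (18.0%), and in *Tbr1* KO 2 were separated upward (3.47%) and 1 downward (4.02%). The gene below every control in all 3 mutants was *Cdk6*. Of the members separated upward in dKO, 4 belong to S phase (*Mcm4*, *Mcm7*, *Cdc6*, *Pola1*), 11 to G2/M and 2 to G1 (*Ccnd2*, *Cdkn1a*).

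**Figure D1:**
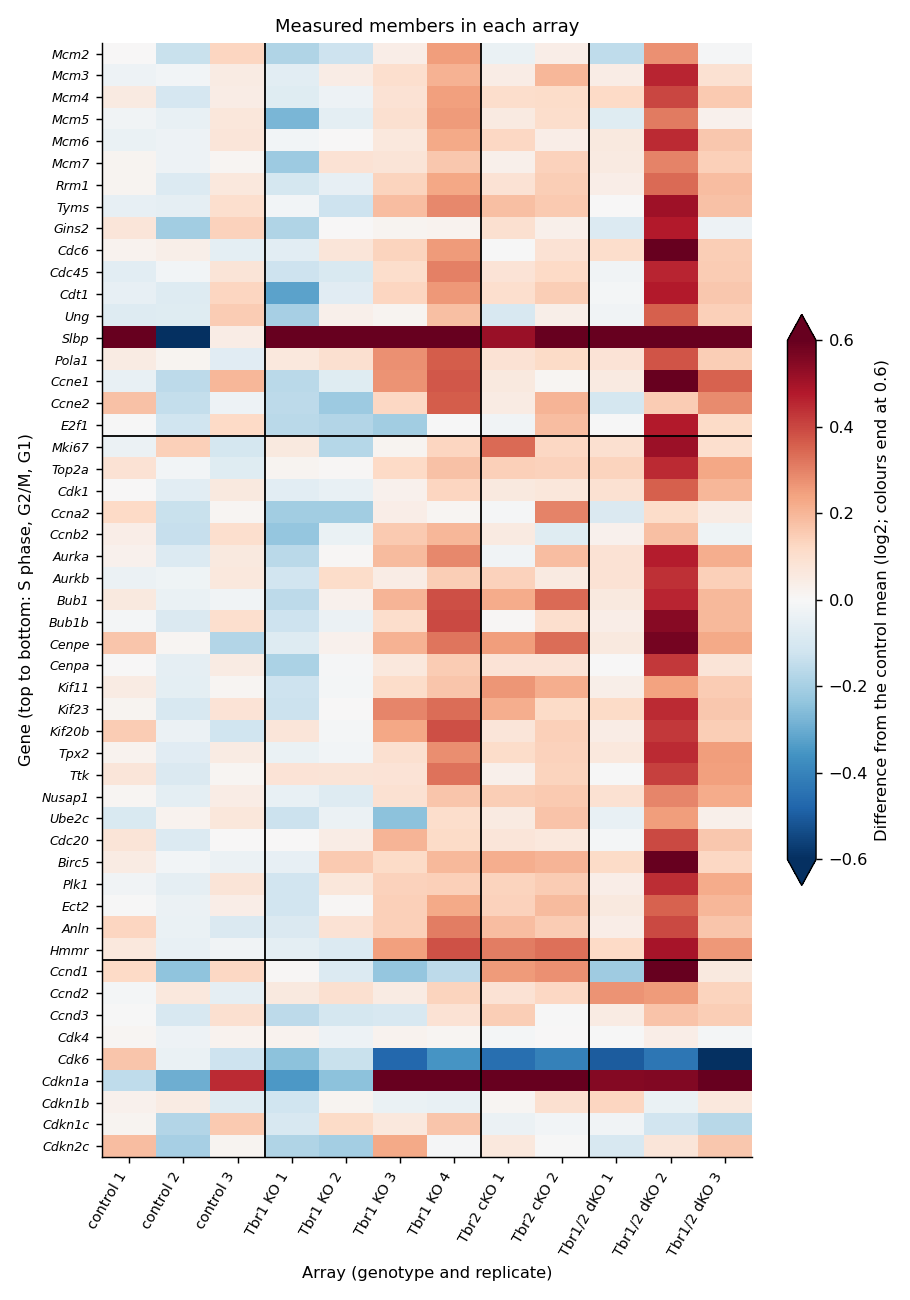
Log2 difference of each of the 51 measured members (vertical axis, S phase at the top, then G2/M, then G1) from its control mean in each of the 12 arrays (horizontal axis), with colours ending at 0.6. Red fills most S phase and G2/M rows in Tbr1 KO 4 and dKO 2, while the Cdk6 row is blue in all 9 mutant arrays.

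Arrays of 1 genotype were spread widely along this list, and the spread ran through both the S phase and the G2/M genes. dKO 2 was the highest dKO array for 45 of the 51 members, against 45.4% of all genes, including 17 of 18 S phase and 24 of 24 G2/M genes. dKO 1 was the lowest for 45 members, against 29.6% of all genes. In *Tbr1* KO, array 4 was the highest for 43 members (26.2% of all genes) and array 1 the lowest for 34 (29.0%), and control 2 was the lowest control for 34 (36.8%). Without dKO 2 the median over the members was 0.10 in dKO and 41 members stayed above 0, and without *Tbr1* KO 4 the median was 0.00 in *Tbr1* KO, with 26 above 0.

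As medians over the 18 S phase genes, the controls stood at 0.00, -0.08 and 0.07 relative to the control mean and *Tbr1* KO at -0.14, -0.04, 0.10 and 0.25. *Tbr2* cKO arrays stood at 0.07 and 0.12 and the dKO arrays at 0.02, 0.45 and 0.15. S phase medians of 2 *Tbr1* KO arrays thus lay below 0 and those of the other 2 above every control. Both dKO 1 and, narrowly, *Tbr2* cKO 1 fell within the range of the controls. Over the 24 G2/M genes the controls stood at 0.03, -0.05 and 0.03, *Tbr1* KO at -0.10, -0.00, 0.12 and 0.20, *Tbr2* cKO at 0.13 and 0.15, and dKO at 0.06, 0.43 and 0.18. Here all 5 arrays without *Tbr2* were above the 3 controls. The median over the 9 G1 genes stayed between -0.12 and 0.07 in all 12 arrays, though single genes of the list moved further.

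**Figure D2:**
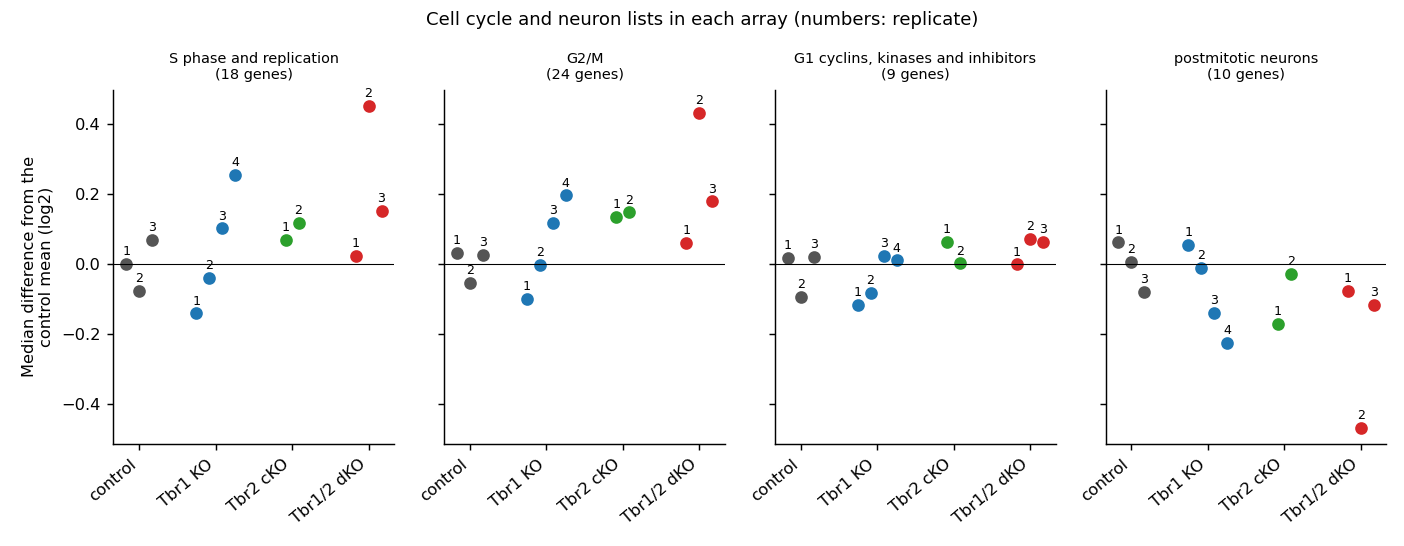
Median log2 difference from the control mean (vertical axis) of 18 S phase genes, 24 G2/M genes, 9 G1 genes and 10 markers of postmitotic neurons in each array, grouped by genotype, with the replicate number beside each point. dKO 2 is highest in the S phase and G2/M panels, at 0.45 and 0.43, and lowest in the neuron panel, at -0.47.

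Markers of postmitotic neurons, the cells that have left the cycle, lay lower in the *Tbr1* KO and dKO arrays whose cycle lists were highest. Of 12 listed, 10 were measured, and their mean log2 level ranged from 12.11 to 12.24 in controls, from 11.89 to 12.25 in *Tbr1* KO, from 11.99 to 12.11 in *Tbr2* cKO and from 11.66 to 12.04 in dKO. As a median difference from the control mean they stood at -0.47 in dKO 2 and -0.22 in *Tbr1* KO 4, the arrays with the highest S phase medians in their groups, and at 0.05 in *Tbr1* KO 1, the array with the lowest. In *Tbr2* cKO the array with the higher cycle medians, array 2, had the neuron value nearer to control, at -0.03 against -0.17. In each mutant comparison 3 of the 10 markers lay above 0. Array values have no true 0, so no marker can be given as absent. The share of neurons in each dissection and its part in the cycle values were not tested.

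Markers of other cells that a neocortex dissection can hold were read in the same way. Of 12 radial glial markers, the genes of the ventricular progenitors, 11 were measured, and their mean log2 level ranged from 11.40 to 11.47 in controls, from 11.40 to 11.58 in *Tbr1* KO, from 11.55 to 11.56 in *Tbr2* cKO and from 11.59 to 11.63 in dKO. All 5 arrays without *Tbr2* were thus above the controls for this list, as they were for G2/M. Of 10 intermediate progenitor markers, which include *Eomes* itself, 9 were measured. Their mean log2 level, *Eomes* included, ranged from 11.21 to 11.38 in controls and from 11.20 to 11.42 in *Tbr1* KO. It was lower in *Tbr2* cKO (11.06 to 11.09) and dKO (11.12 to 11.185). The median log2 fold changes had the other direction, at 0.06 (*Tbr1* KO), 0.11 (*Tbr2* cKO) and 0.21 (dKO), with 5, 7 and 8 genes above 0. In dKO 2 of the markers were called higher and 1 lower, where 3.11% of all genes were called, and in *Tbr2* cKO 0 and 1, against 0.653%. The lower gene was *Eomes* in both. Choroid plexus and cortical hem, tissue at the medial edge, were followed by 13 measured markers, which ranged from 7.26 to 8.06 in controls, 7.52 to 8.39 in *Tbr1* KO, 7.79 to 8.96 in *Tbr2* cKO and 7.57 to 8.22 in dKO. Of these, 11 had a log2 fold change above 0 in *Tbr1* KO, and 13 of 13 in *Tbr2* cKO and in dKO. The 7 measured genes of the subpallium and interneurons ranged from 9.24 to 9.50 in controls, 9.04 to 9.61 in *Tbr1* KO, 9.07 to 9.10 in *Tbr2* cKO and 8.82 to 9.24 in dKO, with 1, 0 and 1 of 7 above 0 in *Tbr1* KO, *Tbr2* cKO and dKO. The part of these cells in the S phase and G2/M values was not tested.

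The S phase list covers the replication machinery: the Mcm helicase, the factors that load and start it, polymerase alpha and the enzymes that supply nucleotides. Median log2 fold changes were 0.05 (*Tbr1* KO), 0.09 (*Tbr2* cKO) and 0.20 (dKO), with 15, 16 and 18 of the 18 genes above 0, and no gene of it was called in any of them. In dKO the values ran from 0.04 for *Mcm2* to 1.75 for *Slbp*. Without dKO 2 the dKO median was 0.09, and without *Tbr1* KO 4 the *Tbr1* KO median was -0.01.

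Transcription of many of these genes is driven by E2F factors. The stretch of 160 bases before the annotated start of *Mcm5* and *Mcm6* is printed because both carry E2F letters (TTTCCCGC, TTTGCCGC, TTTCGCGC or TTTGGCGC on either strand). Sequences are from RefSeq on GRCm38.p6, 5′ to 3′ on the gene's strand, with capitals for E2F letters and for CCAAT on either strand. *Mcm5* lies on the plus strand at chr8:75109349-75109508 and *Mcm6* on the minus strand at chr1:128359706-128359865. In *Mcm5*, and in the first E2F run of *Mcm6*, a pair of overlapping matches on opposite strands is merged.
Mcm5: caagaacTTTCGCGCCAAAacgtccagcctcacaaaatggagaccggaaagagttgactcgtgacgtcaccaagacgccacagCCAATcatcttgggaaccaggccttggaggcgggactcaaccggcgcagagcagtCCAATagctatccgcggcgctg
Mcm6: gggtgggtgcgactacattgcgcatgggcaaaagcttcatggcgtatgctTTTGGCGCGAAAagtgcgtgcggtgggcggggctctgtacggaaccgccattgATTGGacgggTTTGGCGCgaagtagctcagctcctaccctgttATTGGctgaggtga

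Among the helicase genes, *Mcm2* was 11.05, 10.92 and 11.18 in the controls, 10.87, 10.93, 11.09 and 11.30 in *Tbr1* KO, 11.01 and 11.09 in *Tbr2* cKO, and 10.90, 11.32 and 11.04 in dKO. The mutant arrays straddled the controls. Its log2 fold change was -0.00 in *Tbr1* KO and *Tbr2* cKO and 0.04 in dKO, with a 95% interval of -0.25 to 0.32 in the latter. *Mcm6* was 10.51, 10.52 and 10.63 in controls, 10.54, 10.56, 10.62 and 10.78 in *Tbr1* KO, 10.68 and 10.59 in *Tbr2* cKO and 10.61, 11.00 and 10.71 in dKO. Only dKO 1 kept the dKO and control arrays of *Mcm6* from separating. Its dKO difference was 0.22 (interval 0.00 to 0.44, adjusted p = 0.39), and *Mcm3*, *Mcm4*, *Mcm5* and *Mcm7* lay between 0.08 and 0.23.

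*Ccne1* and *Ccne2* encode the E cyclins, which activate Cdk2 at entry into S phase. *Ccne1* was 9.50, 9.38 and 9.74 in controls, 9.38, 9.46, 9.81 and 9.91 in *Tbr1* KO, 9.59 and 9.55 in *Tbr2* cKO and 9.59, 10.22 and 9.89 in dKO. Its dKO difference of 0.36 had an interval of -0.02 to 0.75 (adjusted p = 0.45). *Ccne2* was 9.80, 9.48 and 9.59 in controls, 9.47, 9.41, 9.75 and 9.98 in *Tbr1* KO, 9.67 and 9.83 in *Tbr2* cKO and 9.52, 9.78 and 9.91 in dKO. For this second cyclin the groups overlapped throughout, and the dKO difference was 0.11 (interval -0.23 to 0.45).

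*E2f1*, an activator of the S phase genes and a target of its own family, was 10.74, 10.62 and 10.86 in controls, 10.57, 10.56, 10.53 and 10.73 in *Tbr1* KO, 10.72 and 10.92 in *Tbr2* cKO and 10.73, 11.21 and 10.85 in dKO. It stood at -0.14 in *Tbr1* KO and 0.20 in dKO relative to control. All 3 dKO arrays lay above the 4 *Tbr1* KO arrays by a narrow margin, with a difference of 0.33 (interval 0.09 to 0.58) that did not pass the test (adjusted p = 0.26). *Tbr1* KO 4, whose S phase median was 0.25, lay within the control range for *E2f1*.

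*Slbp*, whose protein binds the stem-loop of histone mRNAs and is made in S phase, had the largest differences of the S phase list and the widest spread. Control values were 7.09, 4.06 and 5.64, against 7.01, 6.73, 6.60 and 6.99 in *Tbr1* KO, 6.11 and 6.22 in *Tbr2* cKO and 7.06, 7.63 and 7.36 in dKO. The SD was 1.52 over the controls and at most 0.29 in the mutants, and control 1 alone lay among the mutant arrays. The dKO difference of 1.75 ± 0.55 (SE) had an adjusted p of 0.16, and without control 1 it was 2.50 and called (adjusted p = 0.00728). That fit leaves out the control nearest to the mutants. The dKO difference was not called without control 2, the lowest array at 4.06, or without control 3. Differences in the single mutants were 1.23 and 0.57, with adjusted p = 0.70 and 0.85.

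*Pola1*, the catalytic subunit of polymerase alpha, gave one of the few cases of separation in *Tbr1* KO. It was 9.08, 9.04 and 8.96 in controls, 9.09, 9.13, 9.30 and 9.39 in *Tbr1* KO, 9.12 and 9.14 in *Tbr2* cKO and 9.11, 9.41 and 9.18 in dKO. Every mutant array was above every control, by as little as 0.01 for *Tbr1* KO 1. Differences in the order *Tbr1* KO, *Tbr2* cKO, dKO were 0.20, 0.10 and 0.20, with adjusted p of 0.75, 0.84 and 0.42. *Cdc6*, which loads the helicase, was 0.29 in dKO with arrays at 8.43, 8.94 and 8.47 against 8.26 to 8.36 in controls.

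The G2/M list holds the mitotic kinases, the spindle motors, the checkpoint genes and the proliferation marker *Mki67*. Median log2 fold changes were 0.08 (*Tbr1* KO), 0.14 (*Tbr2* cKO) and 0.22 (dKO), with 22, 23 and 24 of the 24 genes above 0 and 0 called in each. At an unadjusted p under 0.05 there were 0 genes in *Tbr1* KO, 2 in *Tbr2* cKO (*Kif11* and *Hmmr*) and 8 in dKO (*Top2a*, *Cdk1*, *Aurkb*, *Tpx2*, *Nusap1*, *Birc5*, *Plk1* and *Hmmr*), all of them higher, where 3.05%, 3.24% and 5.81% of all genes were higher at that threshold. Without dKO 2 the dKO median was 0.12 and 21 genes stayed above 0, and without *Tbr1* KO 4 the *Tbr1* KO median was 0.01 with 15 above 0.

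Promoters of G2/M genes often carry the CHR element (TTTGAA or TTCGAA) beside CCAAT boxes, through which the DREAM and MuvB complexes and the factor NF-Y act. The last 160 bases before the start of 3 members are shown, since *Top2a* and *Cdk1* had the smallest p of the list over the 4 genotypes and *Mki67* is the standard marker of cycling cells. Capitals mark CHR letters and CCAAT on either strand, and E2F letters in *Cdk1*, the sole G2/M member with one. All lie on the minus strand of GRCm38.p6, *Mki67* at chr7:135716380-135716539, *Top2a* at chr11:99024190-99024349 and *Cdk1* at chr10:69352913-69353072.
Mki67: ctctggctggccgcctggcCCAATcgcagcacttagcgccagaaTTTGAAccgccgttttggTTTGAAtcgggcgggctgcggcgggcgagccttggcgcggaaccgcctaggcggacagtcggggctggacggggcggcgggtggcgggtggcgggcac
Top2a: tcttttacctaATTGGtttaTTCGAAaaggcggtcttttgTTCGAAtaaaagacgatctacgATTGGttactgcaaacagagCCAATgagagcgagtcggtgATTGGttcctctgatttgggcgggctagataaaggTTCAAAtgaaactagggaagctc
Cdk1: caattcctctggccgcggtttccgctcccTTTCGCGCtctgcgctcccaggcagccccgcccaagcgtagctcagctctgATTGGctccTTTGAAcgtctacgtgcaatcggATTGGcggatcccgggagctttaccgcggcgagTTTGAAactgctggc

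Searched over the 250 bases before each start, 46 of the 56 members had a promoter in the RefSeq table of 27025 genes. E2F letters stood in 5 of 17 S phase promoters (29.4%: *Mcm5*, *Mcm6*, *Mcm7*, *Cdc6* and *Pola1*), 1 of 23 G2/M promoters (4.35%) and 0 of 6 G1 promoters, against 2.16% of all. CHR and CCAAT letters occurred together in 9 of 23 G2/M promoters (39.1%: *Mki67*, *Top2a*, *Cdk1*, *Ccnb2*, *Bub1b*, *Kif11*, *Ube2c*, *Cdc20* and *Ect2*), 3 of 17 S phase promoters (17.6%) and 0 of 6 G1 promoters, against 7.0% of all. CCAAT, with or without CHR, was found in 82.6% of G2/M, 64.7% of S phase and 33.3% of G1 promoters, beside 37.5% of all. Among further genes of these pathways, outside the 56, E2F letters stood in 6 of 22 promoters of G1 and the Rb pathway (27.3%). They stood in 6 of 30 further S phase and 3 of 32 further G2/M promoters, so they were not confined to S phase genes. CHR and CCAAT letters together occurred in 8 of 32 further G2/M, 4 of 30 S phase and 3 of 22 G1 and Rb pathway promoters. TTCGAA reads the same on both strands. These are letter matches and not measured sites.

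*Mki67*, the gene of the Ki67 antigen, was 9.22, 9.39 and 9.14 in controls, 9.31, 9.08, 9.27 and 9.38 in *Tbr1* KO, 9.59 and 9.38 in *Tbr2* cKO and 9.35, 9.76 and 9.35 in dKO. Control 2 was above every mutant array except *Tbr2* cKO 1 and dKO 2. Differences were 0.01, 0.23 and 0.24, with an interval of -0.04 to 0.51 and adjusted p = 0.50 in dKO.

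*Top2a*, which untangles DNA before chromosomes part, was 11.64, 11.53 and 11.48 in controls, 11.56, 11.56, 11.67 and 11.73 in *Tbr1* KO, 11.69 and 11.69 in *Tbr2* cKO and 11.68, 11.999 and 11.78 in dKO. All 5 arrays of *Tbr2* cKO and dKO were above the 3 controls. The difference of 0.27 ± 0.08 (SE, interval 0.09 to 0.46) in dKO had the smallest p of the G2/M list in that comparison and did not pass (adjusted p = 0.15), and the differences were 0.08 in *Tbr1* KO and 0.14 in *Tbr2* cKO.

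*Cdk1*, the kinase that drives entry into mitosis, was 11.32, 11.26 and 11.38 in controls, 11.26, 11.27, 11.35 and 11.45 in *Tbr1* KO, 11.38 and 11.39 in *Tbr2* cKO and 11.41, 11.68 and 11.52 in dKO. The dKO arrays lay above every control and every *Tbr2* cKO array, though dKO 1 did so by a few hundredths. Its difference in dKO was 0.22 (interval 0.05 to 0.39, adjusted p = 0.23), against 0.01 in *Tbr1* KO and 0.06 in *Tbr2* cKO. *Nusap1*, a microtubule-bundling protein of the spindle, was 11.25, 11.18 and 11.29 in controls, 11.34, 11.54 and 11.47 in dKO, 11.39 and 11.40 in *Tbr2* cKO and 11.20, 11.16, 11.33 and 11.41 in *Tbr1* KO. Both *Tbr2*-deficient groups were clear of the controls for *Nusap1*, at differences of 0.15 and 0.20 (adjusted p = 0.63 and 0.27).

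Both mitotic kinases *Aurka* and *Plk1* gave similar values. *Aurka*, the centrosome kinase, was 10.77, 10.67 and 10.81 in controls, 10.59, 10.76, 10.94 and 11.04 in *Tbr1* KO, 10.73 and 10.94 in *Tbr2* cKO and 10.83, 11.22 and 10.97 in dKO. *Plk1* was 11.72, 11.69 and 11.82 in controls, 11.63, 11.81, 11.88 and 11.89 in *Tbr1* KO, 11.88 and 11.89 in *Tbr2* cKO and 11.78, 12.19 and 11.97 in dKO. The single mutant *Tbr1* KO covered the control range in both genes, and dKO differences were 0.26 (interval -0.02 to 0.53) and 0.24 (interval 0.01 to 0.46) with adjusted p = 0.46 and 0.36. *Kif11*, the motor that separates spindle poles, had the smallest p of the G2/M list in *Tbr2* cKO. It was 11.82 and 11.77 against 11.50 to 11.61 in controls, a difference of 0.24 (adjusted p = 0.39). *Hmmr* had a larger difference of 0.32, with 9.52 and 9.54 against 9.17 to 9.28 in controls. At the low end of the list, the cyclin genes *Ccna2* and *Ccnb2* differed by 0.02 and 0.06 in dKO and *Ube2c*, which marks mitotic cyclins for destruction, by 0.08.

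**Figure D3:**
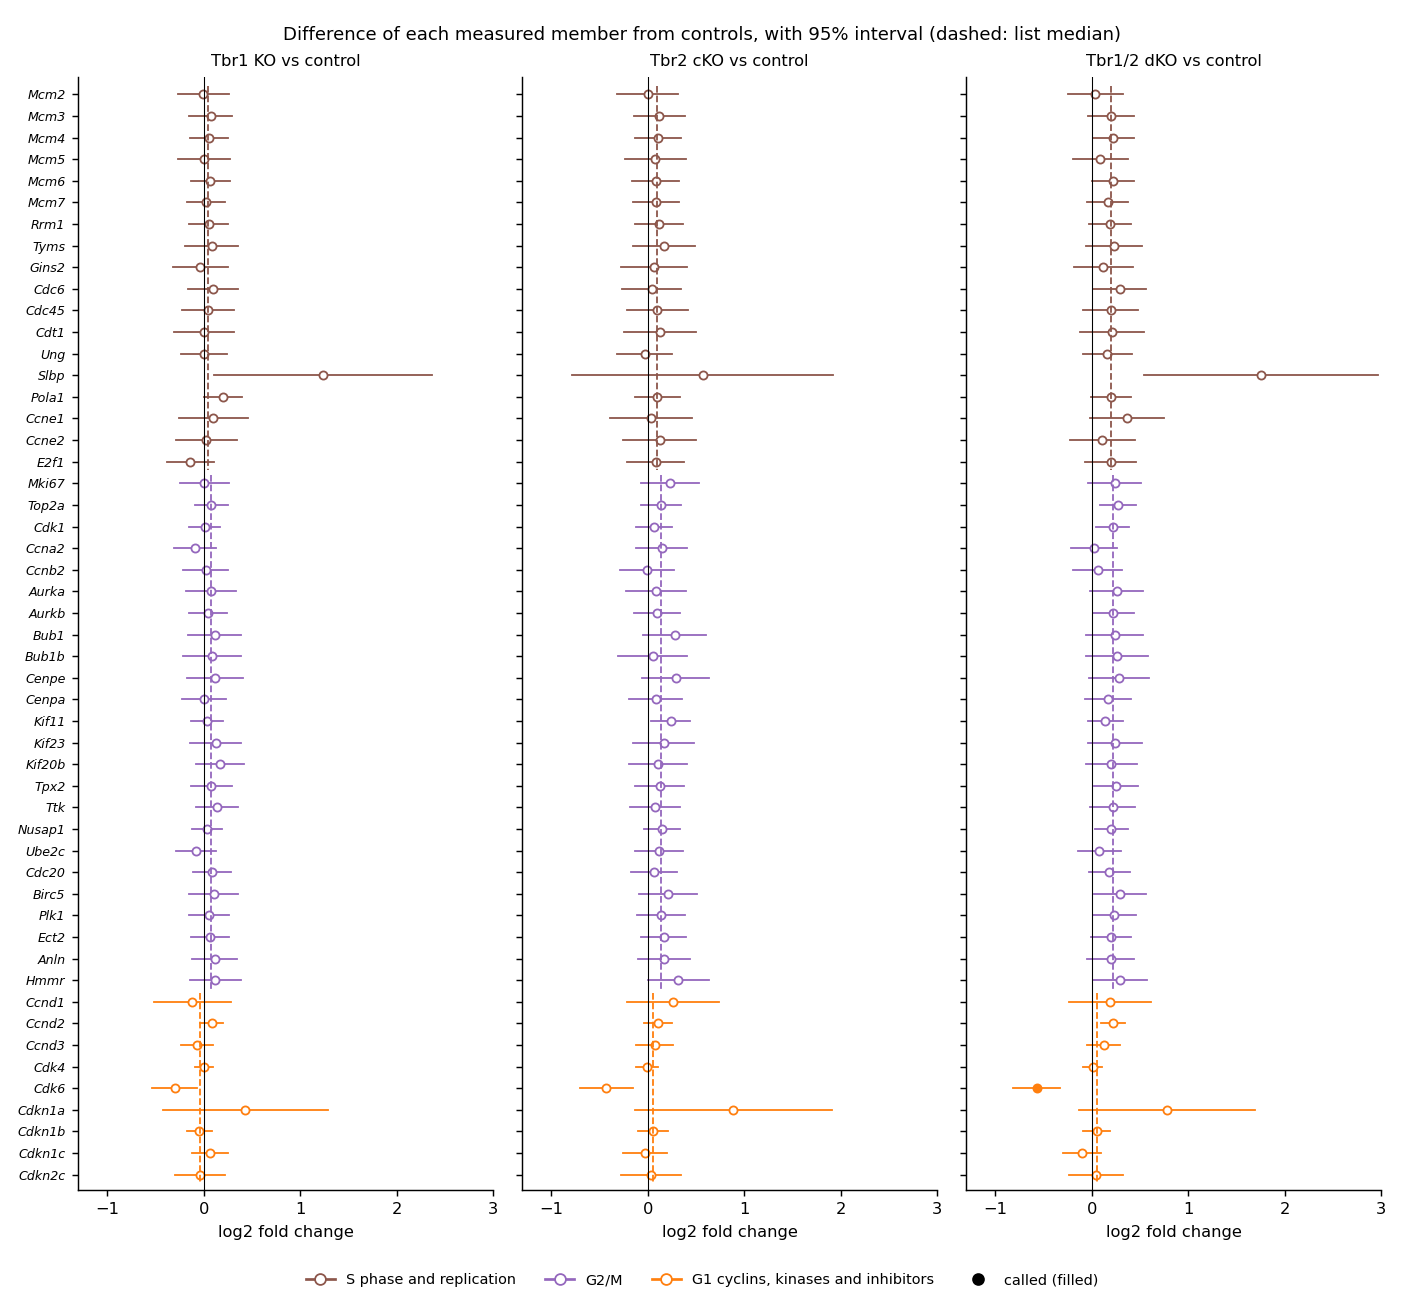
Log2 fold change against control (horizontal axis) of each measured member (vertical axis) in Tbr1 KO, Tbr2 cKO and Tbr1/2 dKO, with 95% intervals from limma and dashed list medians. Only Cdk6 in dKO is filled, as called, and the G2/M points lie to the right of 0 for 24 of 24 genes in dKO.

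The 9 G1 genes, which hold the D cyclins, both their kinases and 4 inhibitors, did not share a direction. Medians were -0.04 (*Tbr1* KO), 0.05 (*Tbr2* cKO) and 0.05 (dKO), and 4, 6 and 7 genes lay above 0. The *Tbr1* KO median lay within 0.02 of 0 on the positive side without *Tbr1* KO 1 or 2, without control 1 or with array weights.

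*Cdk6* fell in dKO. Its log2 values were 11.025, 10.82 and 10.73 in controls, 10.61, 10.725, 10.39 and 10.51 in *Tbr1* KO, 10.41 and 10.455 in *Tbr2* cKO, and 10.36, 10.425 and 10.09 in dKO. Every mutant array was below every control, narrowly so for *Tbr1* KO 2. Means were 10.86 ± 0.15 (SD, n = 3) in control and 10.29 ± 0.18 (SD, n = 3) in dKO, and the difference was -0.57 ± 0.11 (SE, interval -0.81 to -0.32, adjusted p = 0.018). In *Tbr1* KO and *Tbr2* cKO the differences were -0.30 (interval -0.53 to -0.07) and -0.43 (interval -0.70 to -0.16), neither called (adjusted p = 0.51 and 0.23), and that between dKO and *Tbr1* KO was -0.27 (adjusted p = 0.35).

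The *Cdk6* call in dKO did not hold in every fit. Adjusted p was 0.0849 without control 1, 0.0547 without control 2, 0.0617 without dKO 3, 0.0619 without the 2 arrays high in meninges genes, 0.0685 with those genes as a covariate and 0.0872 with only dKO and control arrays in the fit. Across these fits the difference itself stayed between -0.604 and -0.468.

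*Cdk4*, the partner kinase, was the steadiest member. It was 13.91, 13.87 and 13.92 in controls, 13.92, 13.87, 13.92 and 13.91 in *Tbr1* KO, 13.89 and 13.90 in *Tbr2* cKO and 13.90, 13.94 and 13.89 in dKO. Its differences from control were 0.01, -0.00 and 0.01, and the dKO interval of -0.09 to 0.11 did not reach the *Cdk6* value.

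**Figure D4:**
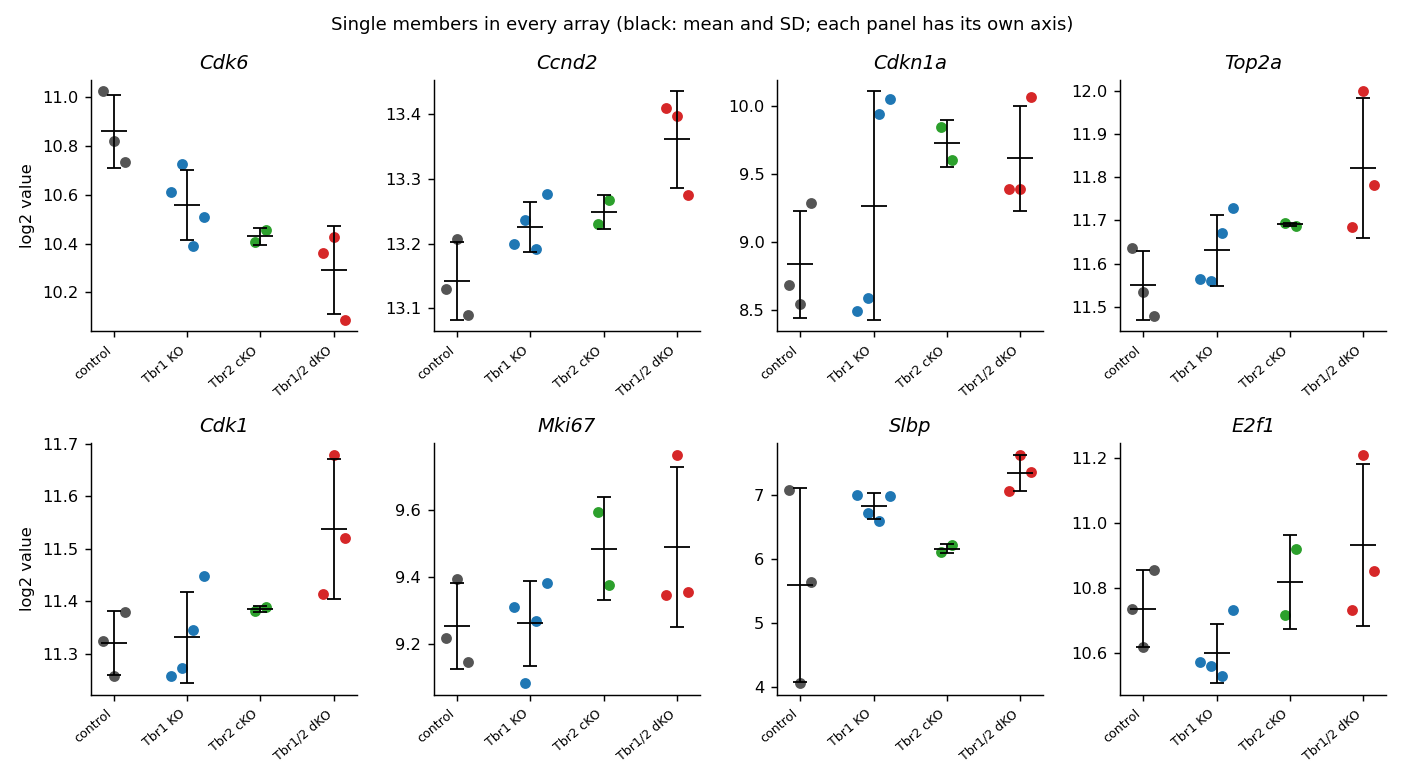
Log2 values (vertical axis, a separate scale in each panel) of 8 members in every array by genotype, with black marks for the mean and SD. Cdk6 lies between 10.73 and 11.025 in controls and between 10.09 and 10.425 in dKO, and the Slbp controls span 4.06 to 7.09.

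Of the D cyclins, *Ccnd2*, which is strongly expressed in cortical progenitors, was 13.13, 13.21 and 13.09 in controls, 13.20, 13.24, 13.19 and 13.28 in *Tbr1* KO, 13.23 and 13.27 in *Tbr2* cKO and 13.41, 13.40 and 13.28 in dKO. The dKO arrays lay above all controls and all *Tbr2* cKO arrays. The difference was 0.22 ± 0.06 (SE, interval 0.09 to 0.34) and missed the threshold (adjusted p = 0.076), though an adjusted p of 0.0297 was reached when only genes above the median level were tested and 0.0162 with a trended and robust prior. In the single mutants *Ccnd2* stood at 0.08 and 0.11.

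*Ccnd1* was 11.37, 11.01 and 11.37 in controls, 11.26, 11.17, 11.02 and 11.09 in *Tbr1* KO, 11.51 and 11.52 in *Tbr2* cKO and 11.03, 11.97 and 11.31 in dKO. Its 3 dKO arrays spanned nearly 1 log2 unit, with dKO 1 beside the lowest control and dKO 2 above all arrays, so that a difference of 0.19 had an interval of -0.24 to 0.62. *Ccnd3* was 9.92, 9.83 and 10.02 in controls, 9.76, 9.81, 9.82 and 10.01 in *Tbr1* KO, 10.07 and 9.92 in *Tbr2* cKO and 9.97, 10.09 and 10.07 in dKO. Its difference was 0.12 in dKO and -0.07 in *Tbr1* KO.

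The kinase inhibitors divided by spread. *Cdkn1a* (p21, a p53 target) was 8.68, 8.55 and 9.29 in controls, 8.50, 8.59, 9.94 and 10.05 in *Tbr1* KO, 9.85 and 9.60 in *Tbr2* cKO and 9.39, 9.40 and 10.07 in dKO. *Tbr1* KO 1 lay below the controls and *Tbr1* KO 2 within their range, while *Tbr1* KO 3 and 4 lay above them. All 5 arrays lacking *Tbr2* were above the controls. Differences were 0.43, 0.89 and 0.78, with intervals of -0.42 to 1.28, -0.13 to 1.91 and -0.13 to 1.69, and none was called (adjusted p = 0.95, 0.57 and 0.51).

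*Cdkn1b* (p27) and *Cdkn1c* (p57), which hold cells out of the cycle as they differentiate, gave values close to control. *Cdkn1b* was 11.57, 11.59 and 11.47 in controls, 11.42, 11.56, 11.50 and 11.50 in *Tbr1* KO, 11.55 and 11.64 in *Tbr2* cKO and 11.67, 11.50 and 11.61 in dKO, a dKO difference of 0.05 (interval -0.09 to 0.19). *Cdkn1c* was 9.75, 9.55 and 9.89 in controls, 9.63, 9.84, 9.79 and 9.90 in *Tbr1* KO, 9.69 and 9.71 in *Tbr2* cKO and 9.71, 9.61 and 9.56 in dKO, a dKO difference of -0.10 (interval -0.30 to 0.10). *Cdkn2c* (p18), an inhibitor of Cdk4 and Cdk6, was 10.58, 10.20 and 10.41 in controls, 10.22, 10.20, 10.63 and 10.39 in *Tbr1* KO, 10.46 and 10.40 in *Tbr2* cKO and 10.30, 10.47 and 10.56 in dKO, a dKO difference of 0.04 (interval -0.23 to 0.32). All groups of these 3 inhibitors overlapped.

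S phase and G2/M medians differed by at most 0.07 log2 units in any array. The S phase median minus the G2/M median ranged from -0.03 to 0.04 over the controls, from -0.04 to 0.06 over *Tbr1* KO, from -0.07 to -0.03 over *Tbr2* cKO and from -0.04 to 0.02 over dKO. dKO 2, the array with the highest medians in both, had a gap of 0.02. The G1 medians of the same array reached 0.07 only.

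Between mutants, 0 members were called. For dKO against *Tbr1* KO (1.24% of all genes called) the S phase, G2/M and G1 medians were 0.15, 0.17 and 0.10, with 7 members at an unadjusted p under 0.05 against 10.9% of genes: *E2f1*, *Top2a*, *Cdk1*, *Nusap1*, *Ccnd2* and *Ccnd3* higher, and *Cdk6* lower. Over the 3 pairs of same-numbered dKO and *Tbr1* KO arrays the median difference was 0.13, 0.44 and 0.05 for S phase genes and 0.15, 0.42 and 0.03 for G2/M genes, so all pairs lay above 0 and pair 2 stood apart. With those 6 arrays alone and the pair as a block 0 members were called and 14 had an unadjusted p under 0.05, 13 of them higher, against 11.5% of genes. *Slbp* and *E2f1* were above every *Tbr1* KO array in every dKO array (4.58% of all genes). For dKO against *Tbr2* cKO (0.108% called) the medians were 0.09, 0.08 and -0.00, 0 members had an unadjusted p under 0.05 against 6.22% of genes, and *Mcm4*, *Cdc6*, *Slbp*, *Cdk1* and *Ccnd2* were separated upward (15.1%). For *Tbr2* cKO against *Tbr1* KO (0.585% called) *Kif11* alone reached an unadjusted p under 0.05, against 12.5% of genes.

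A test for departure from additivity took the dKO log2 fold change minus those of both single mutants. The medians of this departure were 0.05 for S phase, 0.01 for G2/M and 0.04 for G1 genes, beside 0.03 for all genes. limma called 0 members, against 0.0269% of all genes, and 0 had an unadjusted p under 0.05, against 3.43%. An F test over the 4 genotypes also called 0 members, against 2.27%, with *Slbp*, *Top2a*, *Ccnd2* and *Cdk6* at an unadjusted p under 0.05 against 12.7%.

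Further genes of the same pathways, outside the 56, were also measured. Of 42 more G2/M genes 40 were measured, and their medians were 0.09 (*Tbr1* KO), 0.13 (*Tbr2* cKO) and 0.22 (dKO), where in dKO 40 of 40 lay above 0 and 13 were higher at an unadjusted p under 0.05, against 5.81% of all genes. Of 40 more S phase genes 37 were measured, with medians of 0.07 (*Tbr1* KO), 0.05 (*Tbr2* cKO) and 0.14 (dKO), and in dKO 34 lay above 0 and 5 reached that threshold. Of 26 more genes of G1 and the Rb pathway 22 were measured, with medians of 0.02 (*Tbr1* KO), 0.10 (*Tbr2* cKO) and 0.08 (dKO), and 17 lay above 0 in dKO. The single call against control in these lists was *Gadd45g*, a growth arrest and DNA damage gene that binds Cdk1 complexes, which rose by 0.56 in dKO (adjusted p = 0.00307), a comparison in which 3.11% of all genes were called. Its values were 10.44, 10.35 and 10.50 in controls and 10.91, 11.00 and 11.05 in dKO, with no overlap. Both *Tbr2* cKO arrays, at 10.79 and 10.91, were also above every control, so the rise was not confined to dKO. *Tbr1* KO arrays were at 10.37, 10.26, 10.57 and 10.43.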

How the data were processed

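Per the labels, each array holds total RNA of 1 E14.5 neocortex. The authors made the deposited log2 values with RMA in oligo, whose version and settings the sources used here do not give. RMA equalises array distributions, so a shift of all genes would not be seen. Of 23332 probesets, 14996 carried 1 symbol, 1019 several and 7317 none. For 135 genes the probeset with the highest mean was kept.

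All 12 arrays entered 1 limma model (limma 3.58.1, R 4.3.3) with a mean per genotype, 8 residual degrees of freedom and Benjamini-Hochberg adjustment over 14860 genes. Adjusted p-values and intervals are from that fit, and the number of arrays limits its precision. On simulated data the same model called 0% (*Tbr1* KO), 0.1% (*Tbr2* cKO) and 0.3% (dKO) of genes changed by 0.25 log2 units. For changes of 0.5 it called 66.9%, 51% and 59.7%, and for changes of 1 it called 95.2%, 91% and 94%. Values in every array are given for called members, for a set of well-known phase markers and for the 3 members of each list with the smallest F test p. The members and all lists were chosen with earlier results of these data known. Deviations of same-numbered *Tbr1* KO and dKO arrays from their group means had correlations of 0.18, 0.19 and 0.38. Differently numbered arrays of these groups ranged from -0.44 to 0.21, so the numbers do not establish a pairing. Other same-numbered arrays ranged from -0.12 to 0.20, with control and *Tbr1* KO at 0.20, 0.03 and 0.13. Alternatives covered probeset choice, level filter, scaling, prior, array weights, replicate block, meninges covariate and each array left out.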

Additional observations from a re-analysis of the deposited data

Results flagged for a closer look

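In a check of 55 sets of values over the 4 *Tbr1* KO arrays for a single array far from the rest, by Dixon's test, 2 stood out. This is no more than chance gives, at about 1 in 20. *Gins2*, a subunit of the helicase activator GINS, was at 9.775 in *Tbr1* KO 1 and between 9.96 and 9.98 in the other 3 arrays. *Ttk*, a kinase of the spindle checkpoint, was at 9.7614 in *Tbr1* KO 4 and between 9.51 and 9.52 in the others. These are the arrays with the lowest and the highest S phase and G2/M medians of the *Tbr1* KO group.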

How the results depend on the processing

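Under all alternatives with the adjusted threshold, 0 members were called in *Tbr1* KO and in *Tbr2* cKO against control, in the comparisons between mutants and for the departure from additivity. At an unadjusted p under 0.05 there were 3 in *Tbr1* KO, 3 in *Tbr2* cKO, 14 in dKO, 7 in dKO against *Tbr1* KO, 1 in *Tbr2* cKO against *Tbr1* KO and 4 over all genotypes. The dKO count of 1 became 2 among genes above the median level, with a trended and robust prior or at an adjusted p under 0.1 (*Cdk6* and *Ccnd2*), and 0 with the meninges covariate or with only the groups compared. The count over all genotypes became 1 among genes above the median level, with a trended prior, with array weights or at an adjusted p under 0.1. Leaving out 1 array, the dKO count ranged from 0 to 1 and that over all genotypes from 0 to 1, and the others stayed at 0. The dKO count was 0 without control 2, without dKO 3 and without *Tbr2* cKO 1 and dKO 1 together, an alternative added after the data were seen, and the 1 member without control 1 was *Slbp*.

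The labels name no shared litter, and the correlations of same-numbered arrays do not establish a pairing. With the replicate block over all arrays, 2 members were called over all genotypes, no other count moved, and the count for dKO against *Tbr1* KO was 0 in that fit and with their 6 same-numbered arrays alone (added after the data were seen), and the *Tbr1* KO medians were -0.01 for S phase and 0.01 for G2/M genes.

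The *Tbr2* cKO median moved beyond the spread of arrays to 0.16 for S phase with the meninges covariate, and for G2/M to 0.16 with quantile normalization or the block, 0.17 with arrays centred and 0.21 with the covariate. With 1 array (or those 2) left out, S phase medians ranged from -0.01 to 0.11 in *Tbr1* KO, 0.0595 to 0.13 in *Tbr2* cKO and 0.09 to 0.28 in dKO. G2/M medians ranged from 0.01 to 0.12, 0.12 to 0.16 and 0.12 to 0.30, and G1 medians from -0.05 to 0.01, 0.0020 to 0.0712 and 0.0308 to 0.12. The lowest dKO values for S phase and G2/M came without dKO 2, the lowest *Tbr1* KO values without *Tbr1* KO 4, and the lowest G1 value in *Tbr2* cKO without *Tbr2* cKO 1. The cause of these moves was not tested.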
